A study of Mus musculus with 21 samples.

Results

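MHC class II molecules present peptides from outside the cell to CD4+ T cells. Each is a pair of an alpha and a beta chain, assembled in the endoplasmic reticulum with the invariant chain, which keeps the peptide groove closed until the complex reaches the endosome. In the heart, as in other tissues, they are known mainly from macrophages, dendritic cells and B cells, and their genes are switched on together by the coactivator CIITA, which is induced by interferon gamma. H2-Aa and H2-Ab1 encode the alpha and beta chains of the mouse class II molecule I-A, H2-Eb1 the beta chain of I-E, and Cd74 the invariant chain.

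These 4 genes were followed through SLAM-IT-seq of adult mouse heart. The table gives 3′ end reads over 208307 intervals, of which 121259 remained after overlapping ones were reduced to the most read, and the 4 genes hold 1 interval each. The intervals were found by position: of the intervals inside a window around each gene on its strand, the 1 with the most reads summed over all libraries was taken, so the members were selected on their summed read count, and that count is given as a description. H2-Aa had 98195 such reads, H2-Eb1 46564, H2-Ab1 40889 and Cd74 29793. The next interval kept in the same window held 95 reads for H2-Aa, 34 for H2-Eb1, 37 for H2-Ab1 and 126 for Cd74. All 4 passed the filters on low counts.

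In SLAM-IT-seq, 4-thiouracil is given to the animal and enters new RNA mainly in cells with the enzyme Uprt, and after alkylation it is read as a T>C conversion. All 21 mice carried Myh6MCM Tg/0, a tamoxifen-activated Cre driven by the cardiomyocyte promoter of Myh6. They had received tamoxifen on 4 days at 6 to 8 weeks of age, and 4-thiouracil 2 weeks later. RNA of the left-ventricular free wall was taken 6 hours after that. The groups were Lmna F/F with Uprt (n = 6, 4 females and 2 males), Lmna +/+ with Uprt (n = 8, 4 of each sex), Lmna F/F without Uprt (n = 4, 2 of each sex) and Lmna +/+ without Uprt (n = 3, all males). F/F is the usual notation for a floxed gene, Lmna encodes lamins A and C of the nuclear lamina, and Uprt mice are Tg/0. The labels give neither the strain nor the promoter of Uprt, so the cells that carry it are not given. With Cre in cardiomyocytes, any change in genes of other cell types was measured in whole tissue, where fewer cells of a type and less RNA per cell cannot be told apart.

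All 4 intervals lie at annotated transcript ends on mm39. The H2-Aa interval is on chromosome 17 from 34501718 to 34501997 on the minus strand, H2-Ab1 on chromosome 17 from 34488083 to 34488393 on the plus strand, and H2-Eb1 on chromosome 17 from 34534862 to 34535648 on the plus strand. Cd74 is on chromosome 18 from 60945235 to 60945724 on the plus strand. Of the reads on them, 0.126% (H2-Aa), 0.0929% (H2-Ab1), 0.217% (H2-Eb1) and 0.0336% (Cd74) were multimapped.

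Libraries held 25975911 to 51007428 reads on the kept intervals. A T>C conversion was read in 5.07% ± 0.271 of them in Lmna F/F Uprt mice, 4.92% ± 0.451 in Lmna +/+ Uprt mice, 3.61% ± 0.332 in Lmna F/F mice without Uprt and 3.58% ± 0.426 in Lmna +/+ mice without Uprt (SD). Levels below are CPM, reads of a library scaled to a common total with TMM factors. Differences are log2 fold changes with standard errors from edgeR's quasi-likelihood test, with sex as a term, and "called" means an adjusted p under 0.05 over all 31327 intervals tested.

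Class II genes are known to share promoter elements, among them an X box, bound by RFX, and a Y box, an inverted CCAAT bound by NF-Y, which together recruit CIITA. RefSeq promoters (GRCm38.p6, 250 bases before to 50 after the gene start) were at hand for 2 of the 4 genes, H2-Aa and H2-Eb1. For these, 30 bases around each element are shown 5′ to 3′ on the gene's strand, with the matched letters in capitals. No link between these elements and the levels below was tested.
H2-Aa, X box, chr17:34287887-34287916, minus strand: agtctgcagctgGCAACTttgacgtcatca
H2-Aa, Y box, chr17:34287856-34287885, minus strand: aagagaattttCTGATTGGttctggcgagt
H2-Eb1, X box, chr17:34305764-34305793, plus strand: aatctctaactaGCAACTgatgatgctgga
H2-Eb1, Y box, chr17:34305794-34305823, plus strand: ctcctttgatgCTGATTGGctcccagcact
The letters GCAACT and CTGATTGG begin 81 and 51 bases before the gene start in H2-Aa, and 91 and 62 bases before it in H2-Eb1. Their starts are thus 30 bases apart in H2-Aa and 29 in H2-Eb1. The letters were chosen after these promoters had been read, and neither motif overlaps the other. Searched on both strands, CTGATTGG was in 4.10% of 32851 promoters of this length and GCAACT in 10.9%. On the gene's strand alone and at any spacing, GCAACT before CTGATTGG was in 19 of them (0.0578%). The match is a description of the letters only.

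In mice with Uprt, Lmna F/F hearts held more reads of all 4 genes than Lmna +/+ hearts, with fold changes close to each other. H2-Aa ranged from 89.4 to 215 CPM in Lmna F/F mice (median 113) and from 44.0 to 129 CPM in Lmna +/+ mice (median 69.8). Its beta chain partner H2-Ab1 ranged from 38.3 to 83.7 CPM in Lmna F/F mice (median 48.8) and from 17.3 to 43.8 CPM in Lmna +/+ mice (median 26.6). The ranges of both I-A genes overlapped: Lmna +/+ Uprt replicate 8, a female, lay inside the Lmna F/F range. H2-Eb1 ranged from 22.5 to 61.0 CPM in Lmna F/F mice (median 34.6) and from 11.6 to 31.1 CPM in Lmna +/+ mice (median 19.04), again with an overlap. Cd74 ranged from 26.3 to 50.4 CPM in Lmna F/F mice (median 36.4) and from 13.3 to 25.0 CPM in Lmna +/+ mice (median 17.96), with no overlap. Lmna F/F Uprt replicate 1, a male, was the highest of the 14 mice for all 4 genes.

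H2-Aa rose by a log2 fold change of 0.83 ± 0.23 (SE, 1.78-fold, edgeR adjusted p = 0.0469). The rise was 1.00 ± 0.21 for H2-Ab1 (2.00-fold, edgeR adjusted p = 0.00682) and 0.95 ± 0.23 for H2-Eb1 (1.93-fold, edgeR adjusted p = 0.0201). Cd74, the invariant chain, had the smallest adjusted p of the 4 (1.06 ± 0.19, 2.08-fold, edgeR adjusted p = 0.00144). All 4 were thus called higher, against 2.19% of all intervals, and 1.42% of intervals had Lmna F/F mice all above Lmna +/+ mice as Cd74 had. The median log2 fold change was 0.97 over the 4 and 0.01 over all intervals.

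The H2-Aa call is a borderline one. It was lost when replicate 1, 2, 3 or 6 of the Lmna F/F Uprt mice was left out (0.62, 0.77, 0.88 and 0.81), and likewise without Lmna +/+ Uprt replicates 1 to 7 (0.74 to 0.85) and without each Lmna +/+ no Uprt replicate (0.83 each), with adjusted p between 0.0511 and 0.239. The H2-Eb1 call was lost without Lmna F/F Uprt replicate 1 (0.73) or 2 (0.91). Among males alone all 4 genes were called (1.29 for H2-Aa, 1.42 for H2-Ab1, 1.33 for H2-Eb1 and 1.35 for Cd74), and among females alone none was (0.48, 0.67, 0.64 and 0.81 in the same order). The difference between the sexes was not tested.

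**Figure D1:**
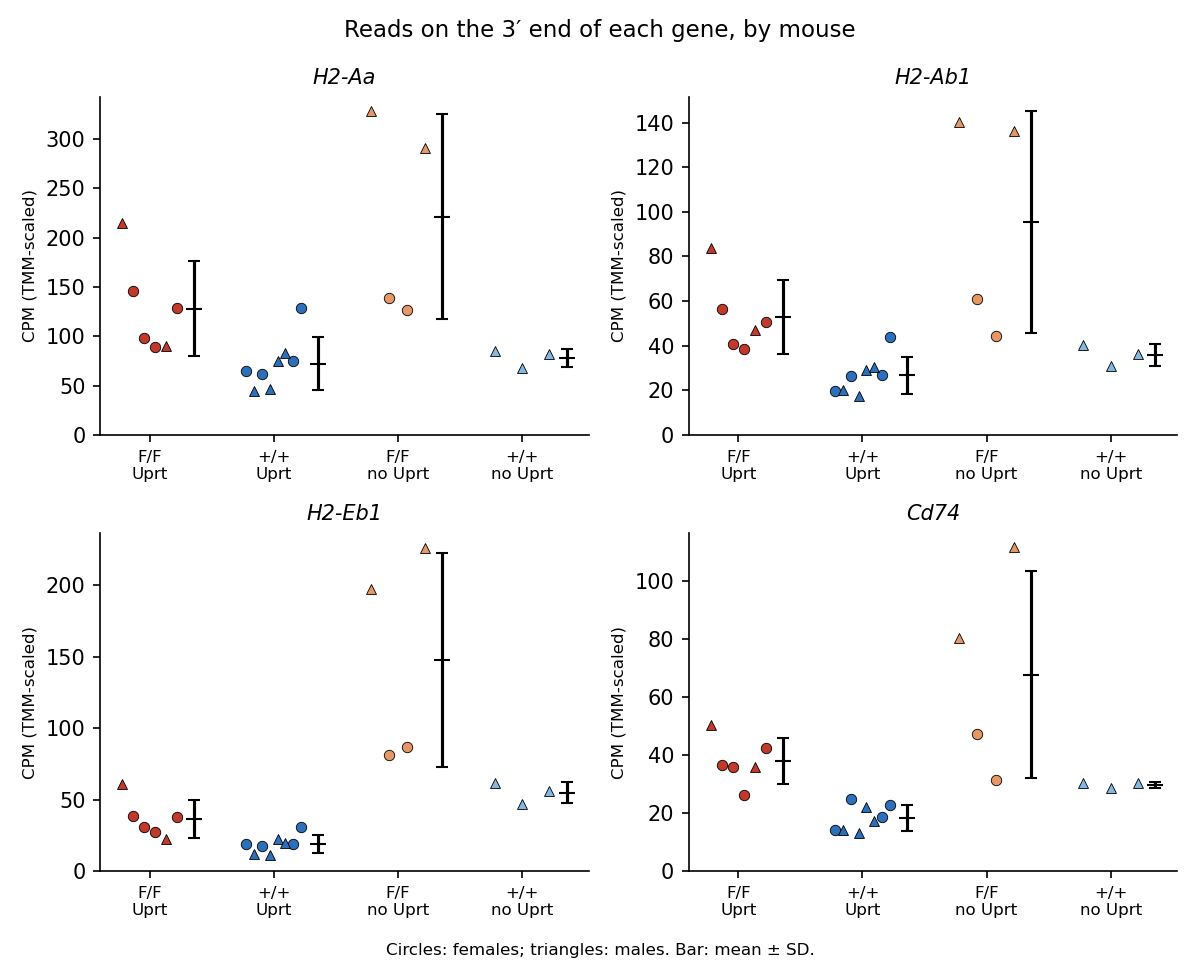
Reads on each gene's interval in TMM-scaled CPM (y axis), with 1 point per mouse, circles for females and triangles for males, and bars for the mean ± SD of each group. In the 4 panels Lmna F/F mice lie above Lmna +/+ mice on average with and without Uprt. The means of all 4 genes are lower with Uprt within each Lmna genotype. Only for H2-Eb1 do both Uprt means lie below both means without Uprt.

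Among the 7 mice without Uprt, all 4 genes were higher in Lmna F/F too. This contrast sets other mice against each other than the one above, but both come from 1 fit with a shared spread and sex term. H2-Aa was at 329, 139, 126 and 291 CPM in Lmna F/F replicates 1 to 4, against 85.1, 68.0 and 81.8 CPM in the 3 Lmna +/+ mice. H2-Ab1 was at 140, 60.7, 44.5 and 136 CPM in the Lmna F/F mice, against 40.5, 30.8 and 36.2 CPM in the Lmna +/+ mice. For both chains the males, replicates 1 and 4, were far above the females, and every Lmna F/F mouse was above every Lmna +/+ mouse. H2-Eb1 was at 197, 81.4, 86.6 and 226 CPM in the Lmna F/F mice, against 61.5, 47.2 and 56.2 CPM in the Lmna +/+ mice. Cd74 was at 80.2, 47.3, 31.5 and 112 CPM in the Lmna F/F mice, against 30.5, 28.6 and 30.5 CPM in the Lmna +/+ mice. Both males were again above both females, and the groups did not overlap, although for Cd74 replicate 3 lay only just above the Lmna +/+ mice.

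The rises were 1.57 ± 0.34 for H2-Aa (SE, 2.96-fold, edgeR adjusted p = 0.00736) and 1.52 ± 0.32 for H2-Ab1 (2.87-fold, edgeR adjusted p = 0.00511). For H2-Eb1 the rise was 1.49 ± 0.34 (2.81-fold, edgeR adjusted p = 0.00980), and for Cd74 1.26 ± 0.29 (2.40-fold, edgeR adjusted p = 0.00917). All 4 were called higher, against 3.46% of all intervals, and 8.08% of intervals had groups that did not overlap in this direction. The median log2 fold change was 1.51 over the 4 and 0.03 over all intervals. Since the Lmna +/+ mice were all males, the sex term is estimated from the other 3 groups. Fitted to the 7 mice alone, the values were 1.97 for H2-Aa, 1.94 for H2-Ab1, 1.93 for H2-Eb1 and 1.67 for Cd74, all called.

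These calls rest on the 2 male Lmna F/F mice. With replicates 1 and 4 left out together, an alternative chosen after seeing the data, the log2 fold changes were 0.67 for H2-Aa, 0.59 for H2-Ab1, 0.49 for H2-Eb1 and 0.35 for Cd74, and none was called. That comparison set 2 females against 3 males. Males alone gave 1.98 for H2-Aa, 1.95 for H2-Ab1, 1.94 for H2-Eb1 and 1.68 for Cd74, all called. With 1 library left out, the H2-Aa call was lost without Lmna F/F no Uprt replicate 1 (1.31), and the H2-Eb1 call without that replicate (1.33) or Lmna +/+ no Uprt replicate 2 (1.39).

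The Lmna difference in mice with Uprt minus that in mice without was below 0 for each gene and not called for any. It was -0.74 ± 0.40 for H2-Aa (SE, edgeR adjusted p = 0.745), -0.52 ± 0.38 for H2-Ab1 (adjusted p = 0.825), -0.55 ± 0.40 for H2-Eb1 (adjusted p = 0.827) and -0.20 ± 0.34 for Cd74 (adjusted p = 0.944). edgeR called 0 of all 31327 intervals in this comparison, where 2204 had an unadjusted p under 0.05. DESeq2 called 3 higher and 5 lower. The standard errors leave room for a smaller rise with Uprt as well as for no difference.

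H2-Eb1 was lower in mice with Uprt than in mice without, a difference called in Lmna F/F and not in Lmna +/+. In Lmna F/F hearts H2-Eb1 was at 36.5 ± 13.5 CPM with Uprt and 148 ± 74.5 CPM without (SD, n = 6 and 4). In Lmna +/+ hearts it was at 19.1 ± 6.17 CPM with Uprt and 55.0 ± 7.24 CPM without (SD, n = 8 and 3). Within each Lmna genotype no mouse with Uprt reached the lowest mouse without it. The log2 fold change of Uprt over no Uprt was -1.94 ± 0.28 in Lmna F/F (SE, 3.85-fold lower, edgeR adjusted p = 0.00179), the 174th lowest of 31327. H2-Eb1 was 1 of 4 intervals called lower (0.0128%), with 0.0223% called higher, and 0.935% of intervals had groups that did not overlap in this direction. The call held with each library left out in turn (-2.21 to -1.72), and with both high males, replicates 1 and 4 of the mice without Uprt, left out together the value was -1.16 and not called (edgeR adjusted p = 0.195). Among males alone it was -2.35 and not called (adjusted p = 0.147), and among females alone -1.32 and called (adjusted p = 0.0479). In Lmna +/+ the difference was -1.40 ± 0.31 (SE, 2.63-fold lower, edgeR adjusted p = 0.208), where edgeR called 0 intervals in either direction and 2239 had an unadjusted p under 0.05. DESeq2 called 40 intervals higher and 13 lower there. Lmna +/+ mice without Uprt were all males, and among males alone H2-Eb1 was called (-1.74, edgeR adjusted p = 0.0194).

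The other 3 genes had smaller fitted differences by Uprt, none called, and the gap between them and H2-Eb1 was not tested. In Lmna F/F the log2 fold changes were -0.72 ± 0.28 for H2-Aa (SE, edgeR adjusted p = 0.336), -0.74 ± 0.26 for H2-Ab1 (adjusted p = 0.290) and -0.75 ± 0.23 for Cd74 (adjusted p = 0.253). With those males left out they were -0.02, -0.02 and -0.04. Leaving out replicate 3 of the Lmna F/F mice without Uprt gave a call for Cd74 (-1.02, edgeR adjusted p = 0.0457). In Lmna +/+ they were 0.01 ± 0.31 for H2-Aa (SE, edgeR adjusted p = 0.999), -0.22 ± 0.29 for H2-Ab1 (adjusted p = 0.954) and -0.54 ± 0.26 for Cd74 (adjusted p = 0.688). Cd74 had no overlap between these groups, as 0.728% of intervals had in this direction.

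The order of the 4 group means differed between H2-Eb1 and the rest of the genes. From the highest mean down, for H2-Aa, H2-Ab1 and Cd74 it was Lmna F/F without Uprt, Lmna F/F with Uprt, Lmna +/+ without Uprt and Lmna +/+ with Uprt. H2-Aa averaged 128 ± 48.3 CPM in Lmna F/F Uprt, 72.3 ± 26.5 CPM in Lmna +/+ Uprt, 221 ± 104 CPM in Lmna F/F no Uprt and 78.3 ± 9.08 CPM in Lmna +/+ no Uprt mice (SD). H2-Ab1 averaged 52.8 ± 16.5 CPM in Lmna F/F Uprt, 26.7 ± 8.37 CPM in Lmna +/+ Uprt, 95.4 ± 49.9 CPM in Lmna F/F no Uprt and 35.8 ± 4.87 CPM in Lmna +/+ no Uprt mice. Cd74 averaged 38.0 ± 7.98 CPM in Lmna F/F Uprt, 18.5 ± 4.47 CPM in Lmna +/+ Uprt, 67.7 ± 35.7 CPM in Lmna F/F no Uprt and 29.9 ± 1.07 CPM in Lmna +/+ no Uprt mice. Of the neighbours in this order, the first pair and the last pair were not called different for these genes, and the middle pair was not tested. For H2-Aa the last pair had a fitted log2 fold change of 0.01 for Uprt over no Uprt, opposite in sign to its means. For H2-Eb1 the order was Lmna F/F without Uprt, Lmna +/+ without Uprt, Lmna F/F with Uprt and Lmna +/+ with Uprt, where the first and the last pair were called different by Lmna and the middle pair was not tested. The Uprt and the Lmna comparisons share mice, so each is given by its own values.

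H2-Eb1 was also set against H2-Aa inside each library. For every 100 reads of H2-Aa there were 28.6 ± 2.51 reads of H2-Eb1 in Lmna F/F Uprt mice and 26.7 ± 2.43 in Lmna +/+ Uprt mice (SD). In mice without Uprt there were 66.2 ± 8.70 in Lmna F/F and 70.1 ± 1.86 in Lmna +/+. The ratio lay between 24.0 and 31.7 in the 14 mice with Uprt and between 58.8 and 77.5 in the 7 without, with no overlap by Uprt, while the ranges of the Lmna genotypes overlapped in mice with Uprt and in mice without. The labels give no strain, so Uprt and anything else that differs between these groups cannot be told apart. H2-Ab1 showed no such split, at 42.3 ± 5.16 reads per 100 of H2-Aa in Lmna F/F Uprt mice, 37.8 ± 4.98 in Lmna +/+ Uprt mice, 42.1 ± 4.93 in Lmna F/F mice without Uprt and 45.7 ± 1.71 in Lmna +/+ mice without Uprt. Nor did Cd74, at 31.3 ± 6.44 in Lmna F/F Uprt, 27.1 ± 7.34 in Lmna +/+ Uprt, 30.5 ± 6.90 in Lmna F/F no Uprt and 38.4 ± 3.29 in Lmna +/+ no Uprt mice. The ratios were chosen after the levels had been seen, are not tested, and are ratios of reads on 2 intervals, not of transcripts.

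**Figure D2:**
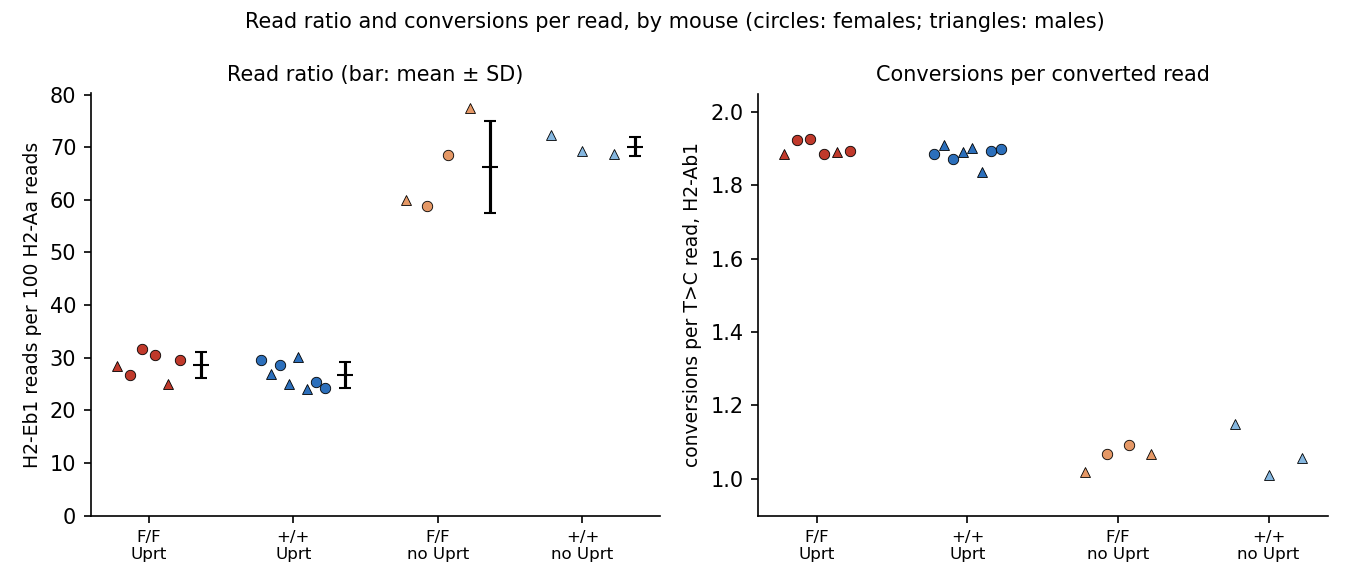
Left, H2-Eb1 reads per 100 H2-Aa reads in each mouse, with bars for the mean ± SD. Right, T>C conversions per T>C read of H2-Ab1 in each mouse, on an axis that starts above 0. Circles are females and triangles males, and in both panels the 14 mice with Uprt lie apart from the 7 without.

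The converted share of the reads split the genes into pairs. In the 14 mice with Uprt, 46.0% to 54.5% of H2-Aa reads were converted (median 50.7%), and 32.4% to 42.9% of H2-Ab1 reads (median 37.1%). H2-Eb1 shares in the same mice were 1.16% to 5.89% (median 2.97%), and Cd74 shares were 0% to 2.16% (median 1.04%). Both chains of I-A thus had shares far above the library-wide share, while the medians of the other 2 genes lay below it.

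Without Uprt, 6 of 7 mice had low shares for every gene. H2-Aa was at 2.79%, 3.95%, 1.77% and 4.27% in Lmna F/F replicates 1 to 4, and at 2.88% and 3.53% in Lmna +/+ replicates 1 and 3. H2-Ab1 was at 1.95%, 3.08%, 1.80% and 3.12% in the Lmna F/F mice, and at 1.82% and 4.26% in those Lmna +/+ mice. Lmna +/+ no Uprt replicate 2 was high instead, inside the range of the Uprt mice for H2-Aa and just below it for H2-Ab1: 48.9% of its 2699 H2-Aa reads were converted (Wilson 95% interval 47.1% to 50.8%) and 29.95% of its 1222 H2-Ab1 reads (27.4% to 32.6%). In the level of H2-Eb1 and in its ratio to H2-Aa, that mouse stood with the other mice without Uprt (47.2 CPM, 69.4 reads per 100). Its H2-Eb1 share was 8.33%, the highest of the 21 mice, and its Cd74 share was 0.0880%, from 1 of 1136 reads.

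The number of conversions in a converted read also differed. In the 14 mice with Uprt a converted H2-Ab1 read carried 1.84 to 1.93 conversions on average, against 1.01 to 1.15 in the 7 mice without Uprt, and 1.01 in Lmna +/+ no Uprt replicate 2. Converted H2-Aa reads carried 1.00 to 1.04 conversions with Uprt and 1.00 to 1.07 without. The T>C columns count a C read at a T of mm39. It may stem from 4-thiouracil or from a base of the mouse that differs from mm39, and which was not tested. Shares of 20% or more in at least 1 mouse without Uprt were found at 1591 of the 12703 intervals tested for share (12.5%). Only mice with at least 20 reads on an interval were looked at there.

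**Figure D3:**
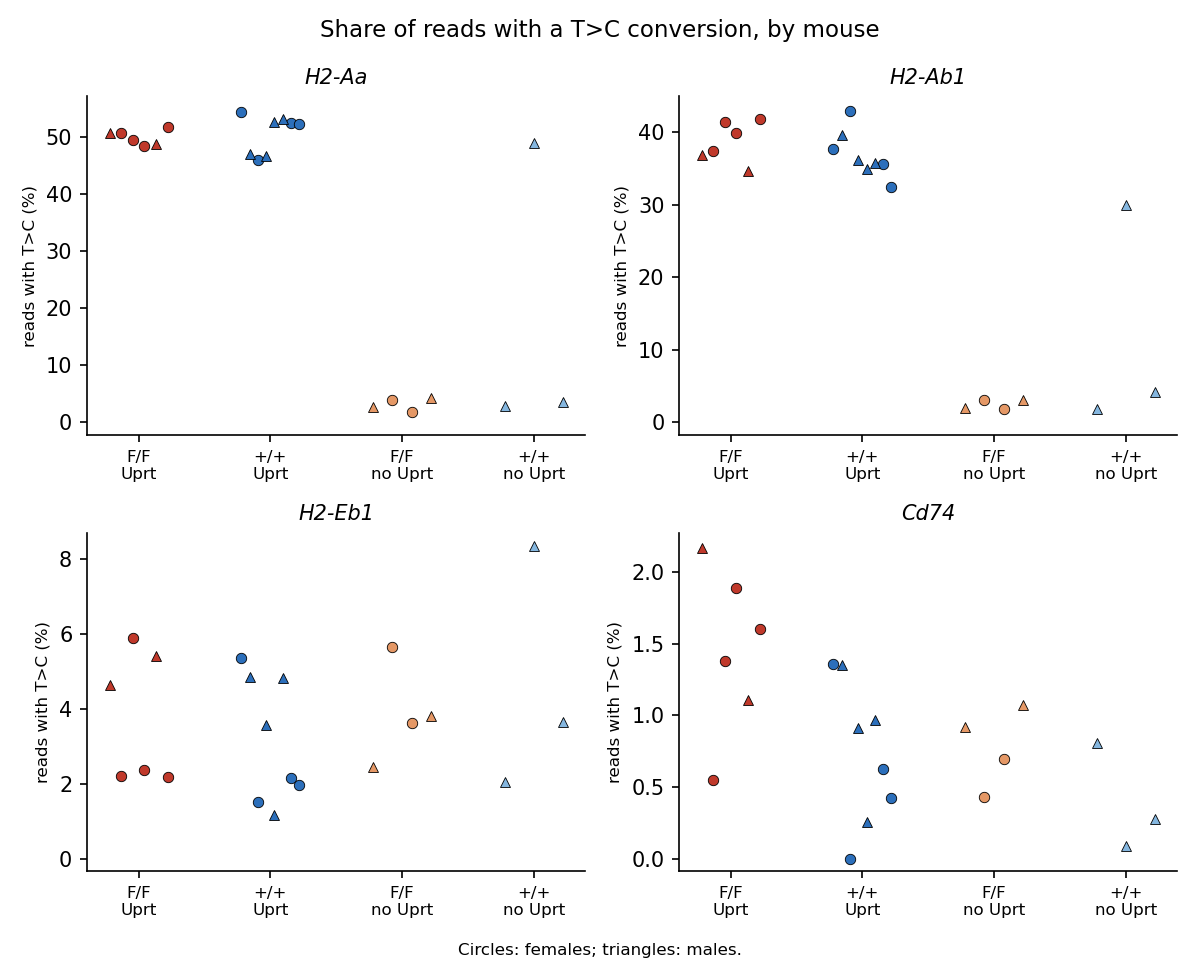
Converted reads of each gene in percent of its reads (y axis, a separate scale for each gene), with 1 point per mouse, circles for females and triangles for males. H2-Aa lies between 46.0% and 54.5% and H2-Ab1 between 32.4% and 42.9% in all 14 Uprt mice, with Lmna +/+ no Uprt replicate 2 the lone high mouse without Uprt, while H2-Eb1 and Cd74 show no such split.

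By edgeR's test on converted and unconverted reads, the odds of conversion with Uprt were higher at 58.8% of the 12703 intervals and lower at 0.165%, with a median log2 odds ratio of 1.19. H2-Aa had 4.30 ± 0.47 (SE, edgeR adjusted p = 1.72e-07), the 72nd highest, and H2-Ab1 3.82 ± 0.39 (edgeR adjusted p = 7.06e-08), the 151st highest. Without Lmna +/+ no Uprt replicate 2 these were 4.99 and 4.45. H2-Eb1 was not called (-0.21 ± 0.34, SE, edgeR adjusted p = 0.621), and was 0.08 without that mouse. Cd74 had 1.04 ± 0.44 (SE, edgeR adjusted p = 0.0466), below the median of all intervals. Its call was lost without each of 15 of the 21 libraries, with values of 0.81 to 1.07: Lmna F/F Uprt replicates 1, 3, 4 and 6, Lmna +/+ Uprt replicates 1, 2, 4, 6, 7 and 8, replicates 1, 2 and 3 of the Lmna F/F mice without Uprt, and replicates 2 and 3 of the Lmna +/+ mice without Uprt. It was also lost in the quasi-binomial model (0.98, adjusted p = 0.0947). Cd74 had few converted reads, 166 of 14244 over the mice with Uprt and 119 of 15549 over those without, and 0 of 928 in Lmna +/+ Uprt replicate 3, which allows a share of up to 0.323%. So 3 of the 4 genes were called higher, near the 58.8% of all intervals.

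Lmna genotype moved no share past the threshold. With Uprt, H2-Aa shares were 50.03% ± 1.28 in Lmna F/F and 50.6% ± 3.40 in Lmna +/+, and H2-Ab1 shares were 38.7% ± 2.83 in Lmna F/F and 36.9% ± 3.19 in Lmna +/+ (SD, n = 6 and 8). The log2 odds ratios of Lmna F/F over +/+ were -0.03 ± 0.45 for H2-Aa and 0.10 ± 0.38 for H2-Ab1. H2-Eb1 shares were 3.78% ± 1.72 in Lmna F/F and 3.17% ± 1.68 in Lmna +/+, with 0.32 ± 0.39. Cd74 shares were 1.45% ± 0.575 in Lmna F/F and 0.737% ± 0.496 in Lmna +/+, with 1.18 ± 0.46 (SE, edgeR adjusted p = 1.000 for all 4). The 4 genes' reads thus rose with Lmna F/F while their converted share gave no call. The standard errors of H2-Aa and H2-Ab1 come from the fit of all 21 mice and were 0.18 and 0.20 without Lmna +/+ no Uprt replicate 2, with the same log2 odds ratios. edgeR called 0 intervals higher and 1 lower (0.00787%) of 12703, and 341 had an unadjusted p under 0.05.

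Without Uprt the log2 odds ratios of Lmna F/F over +/+ were -1.43 ± 0.75 for H2-Aa (SE, edgeR adjusted p = 0.778) and -1.55 ± 0.64 for H2-Ab1 (adjusted p = 0.731). Without Lmna +/+ no Uprt replicate 2, the mouse with high shares, they were -0.05 and -0.29. H2-Eb1 had -0.01 ± 0.64 (edgeR adjusted p = 1) and Cd74 1.29 ± 0.68 (adjusted p = 0.775). edgeR called 0 intervals higher and 1 lower (0.00787%) there, and 846 had an unadjusted p under 0.05.

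**Figure D4:**
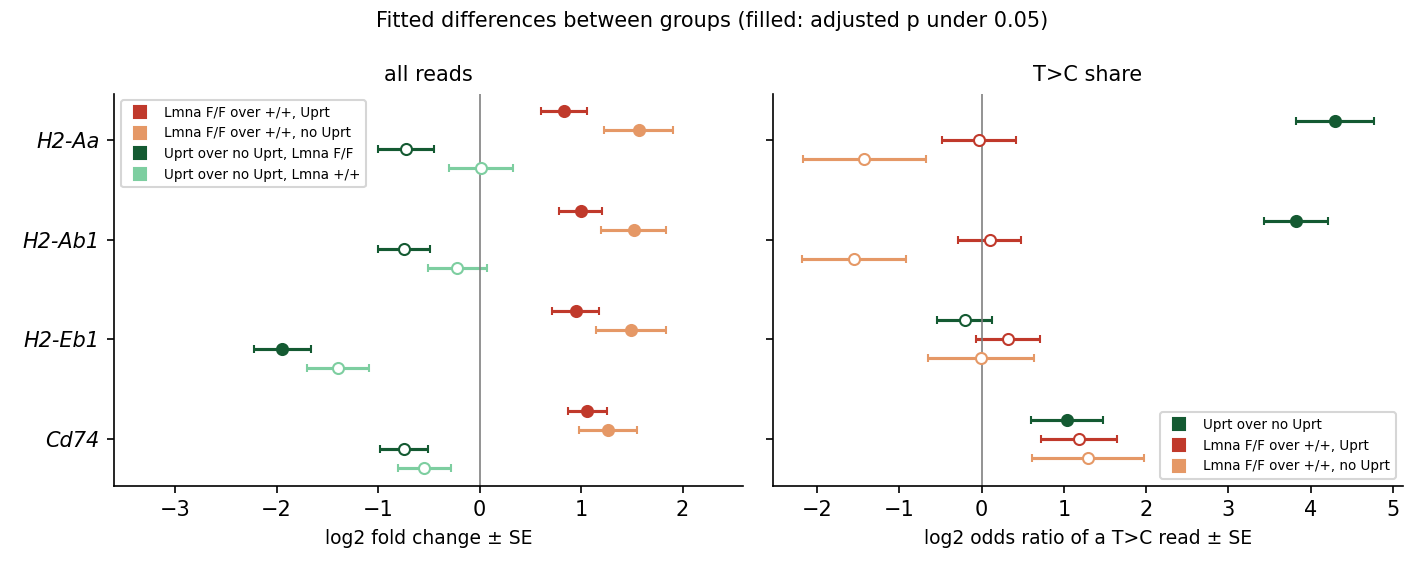
Fitted differences between groups for each gene, as log2 fold changes of all reads (left) and log2 odds ratios of conversion (right), each point with its standard error and filled where the adjusted p was under 0.05. In all reads, Lmna F/F over +/+ is filled and positive for all 4 genes with and without Uprt, and Uprt over no Uprt is most negative for H2-Eb1. The log2 odds ratio of conversion for Uprt over no Uprt is far above 0 for H2-Aa and H2-Ab1.

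The levels of the 4 genes followed each other closely over the libraries, differences between groups included. Their r within groups was not computed. Over the 21 libraries, which share their groups, the Pearson r of each gene's log2(CPM + 0.5) with the mean of the other 3 was 0.977 for H2-Ab1, 0.945 for Cd74, 0.939 for H2-Aa and 0.896 for H2-Eb1. Among 17159 other intervals with a mean of at least 1 CPM, the interval most like the mean of the 4 was that of ENSMUST00000237402.2 on chromosome 17 from 34356191 to 34358052 (r = 0.890). It ranged from 5.22 to 7.75 CPM in Lmna F/F Uprt mice and from 1.35 to 4.92 CPM in Lmna +/+ Uprt mice. The second was that of ENSMUST00000047737.10 on chromosome 8 from 121481915 to 121483433 (r = 0.875), at 10.7 to 16.6 CPM in Lmna F/F Uprt mice and 4.46 to 10.5 CPM in Lmna +/+ Uprt mice. The next were intervals on chromosome 6 from 121247477 to 121247876 (r = 0.872) and on chromosome 11 from 120451124 to 120452008 (r = 0.867). The deposited table does not pair these IDs with gene names.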

How the data were processed

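The deposited table holds 1 row per 3′ end interval and library in SlamDunk's column layout, per the file headers, on mm39, the build in the submitters' processing notes. RNA (1.5 µg) was alkylated with 12 mM iodoacetamide, and QuantSeq 3′ libraries were read over 100 bases, per the labels. The deposited counts used were reads, T>C reads, multimapped reads, read bases over T and conversions over T, per the file headers. The authors' conversion rate, a fraction of T bases converted, was not used. Nor was the authors' CPM column, a score whose total is not stated. Not given in the sources used here are the aligner settings, annotation release, any variant filter and the conversions that mark a T>C read. 0 columns belonged to other samples, and the genotype cell matched the labels in 21 of 21 libraries. Any Uprt 0/0 in the cell was left aside for this, as the labels of mice without Uprt do not name Uprt.

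The 4 members and all lists were chosen with earlier results of these data known. Overlapping intervals of a strand were reduced to the most read. edgeR 4.0.16 in R 4.3.3 (filterByExpr minimum 10, TMM, glmQLFit, glmQLFTest) fitted 4 group means and sex to 21 libraries over 31327 intervals. Shares were fitted on converted and unconverted reads, with library effects and read type by group and sex, over 12703 intervals with means of at least 5 of each. p-values were adjusted by Benjamini-Hochberg over all of them. The p-values measure the spread between mice, 1 library each. Standard errors are log2 fold changes divided by the root of the F statistic. Wilson intervals and the limit for 0 reads (3 counts) cover counting error only. All 4 members are named, and the 4 intervals most like them were chosen by Pearson r. Both tests were tested on simulated counts with 200 changed intervals. At a log2 change of 1 in all reads, 74.5% were recovered by Lmna with Uprt and 34% without. The share recovered was 17% for the difference of these, and by Uprt 64% in Lmna F/F and 50% in Lmna +/+. At a log2 odds change of 2, 95% were recovered by Uprt, and by Lmna 89% with Uprt and 53% without. For the share, the changed intervals all had more T>C reads on average than Cd74, with a mean of 13.6 per library. Those rates therefore do not cover the share of Cd74. Calls among unchanged intervals are not given here. Alternatives used DESeq2 1.42.0 and limma 3.58.1. The supplied GRCm38.p6 table matched 0 transcript IDs, so the pathway genes, cell type markers and the level of Lmna were not looked up, and the tissue was not checked against markers. The replicate numbers are in accession order.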

Additional observations from a re-analysis of the deposited data

Results flagged for a closer look

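Of 27 groups of 4 to 10 mice tested for a mouse far from the rest, 1 had such a mouse, and chance gives about 1 in 20. H2-Aa in Lmna +/+ Uprt replicate 8 was at 128.5 CPM, and the other 7 mice of its group were at 44.0 to 83.0 CPM. The gap made up 0.539 of the group's range, against a critical value of 0.526. That female was also the highest of its group for H2-Ab1 (43.8 CPM) and H2-Eb1 (31.1 CPM), but not for Cd74 (22.8 CPM, below 25.0 CPM in replicate 3). Without it the log2 fold change of Lmna F/F over +/+ in H2-Aa was 1.05.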

How the results depend on the processing

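Of 896 values of the 4 genes under 16 alternative settings and 21 left-out libraries, 839 kept their side of the threshold, 51 lost the call, 6 gained one and 0 reversed a called direction. Among the 839 are 25 values, of 5 uncalled differences, whose sign changed. For Lmna F/F over +/+ with Uprt, females alone lost the calls of H2-Aa (0.48), H2-Ab1 (0.67), H2-Eb1 (0.64) and Cd74 (0.81), and H2-Aa also lost its call with DESeq2 (0.82), DESeq2 size factors (0.82) and no sex term (0.82). Without Uprt, leaving out replicates 1 and 4 of the Lmna F/F mice, a pair chosen after seeing the data, gave 0.67, 0.59, 0.49 and 0.35 in the same gene order, none called. For Uprt over none in Lmna F/F, no low-count filter added the calls of H2-Aa (-0.72), H2-Ab1 (-0.73) and Cd74 (-0.74), and H2-Eb1 lost its call in males alone (-2.35) and without those replicates (-1.16). In Lmna +/+, H2-Eb1 was called with no low-count filter (-1.41) and in males alone (-1.74). The higher odds of a T>C read in Cd74 lost the call with no sex term (0.83), the quasi-binomial model (0.98), conversions per T base (1.02) and Lmna +/+ mice alone (1.15). The cause was not tested. With 1 library left out, the Lmna difference with Uprt ranged from 0.62 to 1.05 for H2-Aa, 0.86 to 1.20 for H2-Ab1, 0.73 to 1.12 for H2-Eb1 and 0.99 to 1.17 for Cd74. Without Uprt it ranged from 1.31 to 1.71, 1.30 to 1.69, 1.21 to 1.64 and 0.91 to 1.44 in that order. Uprt over none in Lmna F/F ranged from -0.99 to -0.52, -0.999 to -0.57, -2.21 to -1.72 and -1.02 to -0.46, and the odds of a T>C read by Uprt from 3.71 to 4.99, 3.31 to 4.45, -0.44 to 0.08 and 0.81 to 1.50.

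Library size alone in place of TMM moved the median of all intervals to 0.17 by Lmna, with and without Uprt, so the rises of the 4 genes are given against 0.01 and 0.03 under TMM. The counts of intervals called by Lmna with Uprt were 686 higher and 83 lower. They were 1286 and 27 with library size alone, 1149 and 442 with no low-count filter, 179 and 4 in females, and 199 and 11 in males. The lower count was 298 with DESeq2, 132 with a transcript's intervals summed, 384 in Uprt mice alone and 38 to 173 with 1 library left out. Without Uprt the counts were 1083 higher and 538 lower. They were 32 and 0 in the 7 mice alone, 311 and 143 without replicates 1 and 4, 372 to 1419 and 88 to 937 with 1 library left out, and the lower count was 265 with library size alone and 209 in males. For Uprt over none in Lmna F/F, 7 were higher and 4 lower by edgeR, 76 and 36 by DESeq2, and 212 and 385 with no low-count filter. The interaction gave 0 and 0, and 84 and 245 with no low-count filter, and Uprt over none in Lmna +/+ gave 0 and 0, and 168 and 78 with no low-count filter. With Uprt the odds of conversion were higher at 7474 intervals, and at 3284 in Lmna +/+ mice alone. By residuals from the group means, 1 of the 4 intervals most like the members stayed among the first 4 (ENSMUST00000047737.10, r = 0.728).

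No paired analysis was possible because the replicate numbers are in accession order and pair no mice. The share of Cd74 rests on 285 converted reads over all libraries.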

Other observations

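Set against Cd74 in place of H2-Aa, H2-Eb1 also differed by Uprt. There were 94.9 ± 20.1 H2-Eb1 reads per 100 of Cd74 in Lmna F/F Uprt mice and 104 ± 23.7 in Lmna +/+ Uprt mice (SD, n = 6 and 8). In mice without Uprt there were 224 ± 45.4 in Lmna F/F and 184 ± 18.5 in Lmna +/+ (SD, n = 4 and 3). The highest mouse with Uprt was at 136.5 and the lowest without at 165. The ratio was chosen after its values were seen and is given with no test.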
